A study of Homo sapiens with 7 samples.

Results

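The loci described here are those of CTCF, its paralogue CTCFL (also called BORIS) and 8 genes of the cohesin machinery, and the measurement is MYCN binding in Kelly cells. Each locus was a window of the hg19 genome that held the gene and about 10 kb on each side. The members were the MYCN summits inside the 10 windows, and a summit is the position of locally highest signal within a called interval. There were 39 of them among 64657 summits in all. They lay in 25 of the 47765 intervals of the list.

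Kelly is an established human neuroblastoma line with MYCN amplification and an activating ALK mutation. Per the labels, Kelly cells resistant to TAE684, an inhibitor of ALK, were kept for 48 h with 1 µM of it, and cells sensitive to it for 48 h with DMSO, before chromatin immunoprecipitation (ChIP). The labels describe 2 MYCN ChIP samples and 2 input samples of resistant cells, and 2 MYCN ChIP samples and 1 input sample of sensitive cells. All samples derive from a single cell line, and the labels do not say how the resistant cells were obtained. The peak lists named for the 2 states were identical in all 64657 rows, and every peak name carried the name of the sensitive cells. All values below therefore describe sensitive, DMSO-treated cells, from 1 list for both ChIP samples, with no replicate error and no test between the states.

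MYCN is a basic helix-loop-helix factor that binds DNA with its partner MAX, preferring the E-box CACGTG and close variants of it. Cohesin is a ring-shaped protein complex that holds sister chromatids together and extrudes chromatin loops. CTCF is a zinc-finger protein that binds DNA and halts loop extrusion, and CTCFL is a related zinc-finger protein whose expression is normally limited to the testis germ line. NIPBL and MAU2 load cohesin onto chromatin, WAPAL (now named WAPL) releases it, and PDS5A and PDS5B bind the ring and take part in both its release and its protection.

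The promoter letters of 4 of these genes are shown because CTCF, SMC3 and PDS5A carried some of the strongest summits near their starts, whereas the highest summit of CTCFL was lower than that of any other locus. The choice left out WAPAL, whose strongest summit near its start, with a fold enrichment of 11.8, exceeded that of CTCF, with 11.4. The WAPAL window held none of the sequences marked here. They are RefSeq windows of 300 bases on GRCh38.p14, from 250 bases before to 50 after a gene start, and they were not placed on the hg19 peaks by coordinate. Capitals mark the E-box CACGTG, or its variants with CACGCG, with CACGAG and with CATGTG as letters, on either strand. The run CGCGTG is thus the variant CACGCG read on the other strand. CTCFL has 3 windows, for 3 starts.
CTCF, chr16:67562276-67562575, plus strand: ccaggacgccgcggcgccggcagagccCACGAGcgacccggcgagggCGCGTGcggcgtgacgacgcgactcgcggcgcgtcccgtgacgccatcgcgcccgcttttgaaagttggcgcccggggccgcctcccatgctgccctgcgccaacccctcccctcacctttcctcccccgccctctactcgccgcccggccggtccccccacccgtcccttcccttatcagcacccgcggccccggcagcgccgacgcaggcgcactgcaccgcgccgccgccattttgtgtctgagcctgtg
SMC3, chr10:110567445-110567744, plus strand: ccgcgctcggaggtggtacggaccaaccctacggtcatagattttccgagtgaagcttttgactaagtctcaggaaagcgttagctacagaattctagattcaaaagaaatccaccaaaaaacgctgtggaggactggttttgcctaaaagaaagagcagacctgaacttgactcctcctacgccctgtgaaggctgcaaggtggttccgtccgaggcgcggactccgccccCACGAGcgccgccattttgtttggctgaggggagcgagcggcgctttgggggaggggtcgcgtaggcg
PDS5A, chr4:39977862-39978161, minus strand: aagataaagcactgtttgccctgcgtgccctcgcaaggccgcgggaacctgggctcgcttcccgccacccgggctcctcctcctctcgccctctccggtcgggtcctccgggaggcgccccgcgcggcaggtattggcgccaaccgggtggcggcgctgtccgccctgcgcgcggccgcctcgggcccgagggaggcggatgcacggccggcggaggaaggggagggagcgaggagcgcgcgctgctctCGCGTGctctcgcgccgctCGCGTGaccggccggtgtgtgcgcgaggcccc
CTCFL, chr20:57524648-57524947, minus strand: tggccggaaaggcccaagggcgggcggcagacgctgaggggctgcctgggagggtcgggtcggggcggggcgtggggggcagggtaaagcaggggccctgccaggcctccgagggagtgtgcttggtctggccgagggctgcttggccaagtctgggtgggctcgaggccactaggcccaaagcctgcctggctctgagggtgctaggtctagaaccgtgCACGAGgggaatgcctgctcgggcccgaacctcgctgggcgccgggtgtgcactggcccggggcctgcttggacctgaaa
CTCFL, chr20:57525091-57525390, minus strand: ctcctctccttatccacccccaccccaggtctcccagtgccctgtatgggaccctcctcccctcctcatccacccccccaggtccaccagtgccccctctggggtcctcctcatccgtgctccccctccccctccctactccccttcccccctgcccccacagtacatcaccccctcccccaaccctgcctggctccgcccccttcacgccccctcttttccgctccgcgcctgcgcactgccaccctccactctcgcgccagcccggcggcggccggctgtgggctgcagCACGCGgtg
CTCFL, chr20:57525603-57525902, minus strand: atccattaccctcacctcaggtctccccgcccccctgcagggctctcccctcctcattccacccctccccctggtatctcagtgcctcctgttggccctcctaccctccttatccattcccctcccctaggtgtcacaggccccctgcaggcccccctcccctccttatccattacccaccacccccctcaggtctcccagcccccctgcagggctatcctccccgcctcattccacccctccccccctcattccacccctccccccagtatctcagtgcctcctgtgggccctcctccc

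The palindrome CACGTG was found in the windows of 0 of the 9 member genes that have one, and 7.26% of all 35116 windows in the table held it. At least 1 of the 4 sequences was found for 5 of the 9 genes, against 32.0% of all windows. Member counts are by gene, with 11 windows for the 9 genes, and the shares are by window. CTCFL, with 3 windows, thus had more letters to match, and the counts and shares are not like for like. CTCF held CACGAG at base 28 of its window and CGCGTG at base 48. SMC3 held CACGAG at base 233. PDS5A held CGCGTG at bases 250 and 269, and STAG1 held it at base 86. CTCFL held CACGAG at base 221 of its first printed window and CACGCG at base 292 of the second. NIPBL, MAU2, WAPAL and PDS5B held none of the 4 in this stretch. The looser pattern CANNTG, which includes CACGTG and CATGTG, occurred for 3 of the 9 genes, against 68.7% of all windows. These matches describe letters only, and the G and C content of the member windows ranged between 56.0% in SMC3 and 76.3% in WAPAL, against a median of 58.7% over all windows.

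MYCN summits at these loci gathered at the starts of the genes. A summit lay within 2 kb of the implied 5′ end in 10 of 10 windows, and within 1 kb in 9 of 10, with CTCFL as the exception. The implied end of CTCFL is uncertain, so its place in these counts is not settled. Of the 39 summits, 29 lay in the stretches within 2 kb of an implied 5′ end (74.4%, exact Clopper-Pearson 95% interval 57.9 to 87.0, counting error only). That interval treats summits as independent, which those of 1 called interval are not. Counted by called interval, 15 of the 25 had a summit there, and the densities below count every summit. The stretches made up 2.73% of the window length. That is 72.5 summits per 100 kb near the 5′ ends against 0.703 per 100 kb in the rest of the windows and 2.13 per 100 kb over chromosomes 1 to 22 and X. Within 2 kb of the implied 3′ ends there were summits in 0 of 10 windows, the closest being a MAU2 summit 2062 bp beyond its 3′ end, too near the limit of 2 kb to be told apart from it. Positions within 2 kb of any summit made up 5.39% of the chromosomes. Gene starts are not arbitrary positions, and how often other genes carry a summit at their start was not measured, because no hg19 annotation was used.

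**Figure D1:**
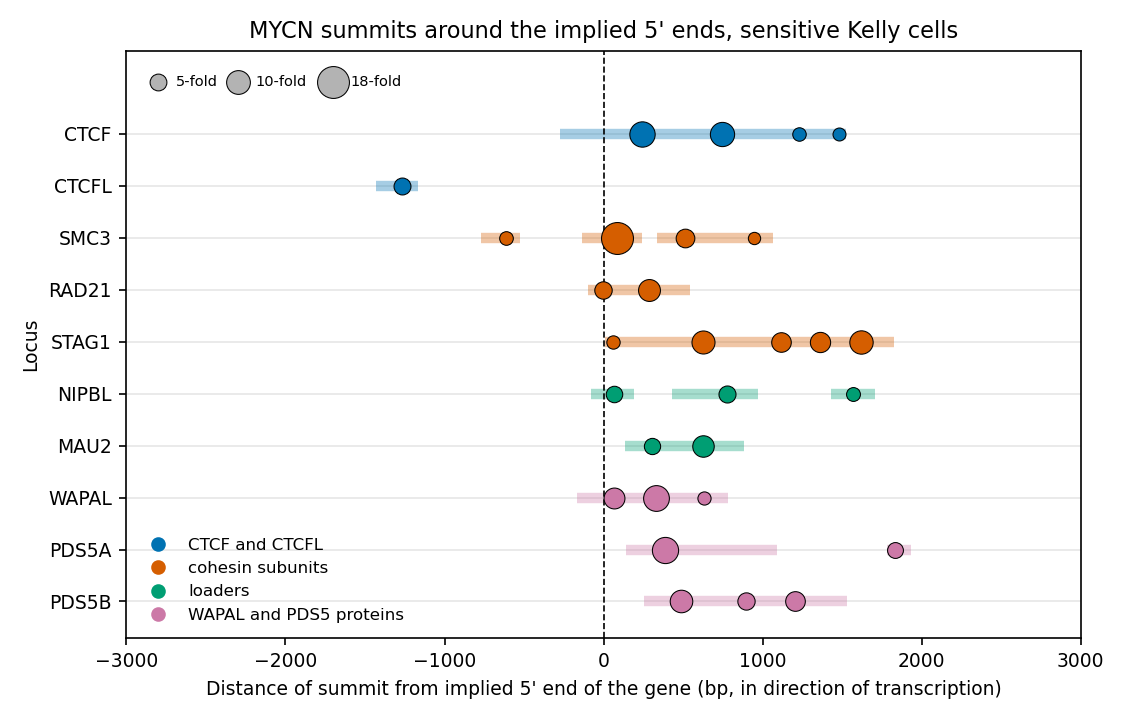
Each row is a locus, with distance in bp from the implied 5′ end along the direction of transcription. Circles are MYCN summits with area proportional to the authors' fold enrichment, and bars are the called intervals. In 9 of 10 loci a summit lies within 1 kb of the dashed line, and the CTCFL summit lies 1269 bp upstream of it.

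The 5′ ends were read from the windows, by moving in 10 kb from the edge on the side where transcription starts. Gene lengths implied in this way differed from the RefSeq lengths on GRCh38.p14 by -0.35 to 1.43 kb for 9 genes. For CTCFL the implied gene was 37 kb long and the RefSeq gene 29.7 kb, so its ends are less certain than those of the others. The windows are given in whole kb, with a margin of about 10 kb. For the other 9 genes, distances from an implied end are thus approximate to about 1 kb. Within that range, whether a summit lies inside or upstream of a gene is not resolved. For CTCFL the lengths differ by 7.31 kb. Whether its summit at 1269 bp lies within 1 kb or 2 kb of the start, or upstream of it, is therefore not settled.

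By fold enrichment, the ratio of ChIP to local input as the authors deposited it, the 39 summits had a median close to that of the whole list. It was 5.30 with quartiles of 4.08 and 8.34, against 5.35 with quartiles of 3.90 and 7.54 for all summits. A fold enrichment of at least 10 was reached by 6 of 39 summits (15.4%, exact 95% interval 5.86 to 30.5), against 12.0% of the list, a share inside that interval. Of the 6, 2 belonged to CTCF and 1 each to SMC3, WAPAL, PDS5A and MAU2. The ChIP fragments over a summit, which were recovered from fold and p-value, had a median of 95 at the loci and 63 in the list. More fragments than the upper quartile of the list, 102, covered 18 of 39 summits, against 25.0% of all summits. The local input background was also higher, with a median of 9.52 fragments at the loci and 7.56 in the list, and it divides the fold. ChIP fragments are given before scaling to the depth of the input, so fragments over background is not the fold. The background was at its genome-wide mean of 1.61 at 0 of the 39 summits, against 7.01% of the list, a share that would give few such summits among 39. Summits of 1 interval share their reads, so these are not 39 independent sites.

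**Figure D2:**
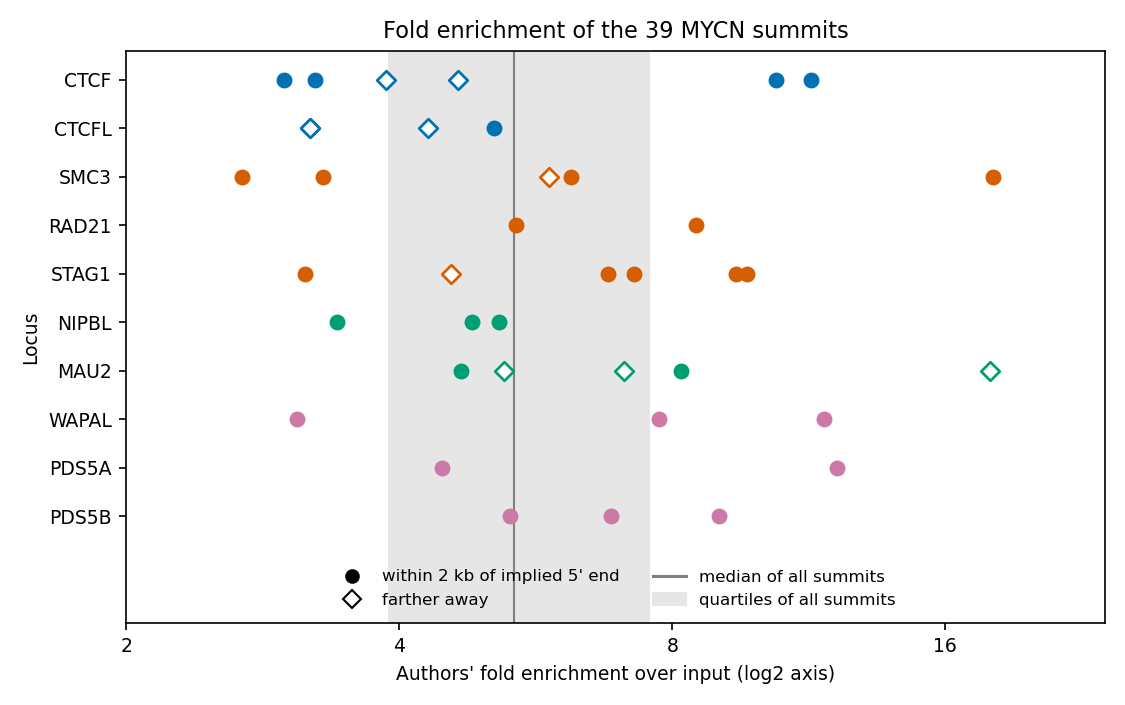
Each point is a MYCN summit, placed by the authors' fold enrichment on a log2 axis; filled circles lie within 2 kb of the implied 5′ end and open diamonds farther away. The grey band spans the quartiles of all summits, 3.90 to 7.54, and the 4 CTCFL summits all lie left of the list median of 5.35.

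CTCF, the architectural zinc-finger protein, had 6 summits in its window on chromosome 16 from 67586 to 67683 kb. An interval of 1800 bp from 67595728 to 67597527 covered the implied gene start and held 4 of them. Its first summit, at 67596244, had a fold enrichment of 11.4 with 185 ChIP fragments, and its second, 499 bp further at 67596743, had 10.4 with the same 185 fragments. The third and the fourth were weaker, with 3.23 and 2.99. The strongest lay within 1 kb of the implied start and ranked above 92.2% of the list by fold. No summit was listed over the remaining 75.5 kb of the gene, 98.1% of its implied length. The other 2 summits, with fold enrichments of 3.87 and 4.64, lay 5786 and 8533 bp beyond the implied 3′ end, on the side where the protein-coding neighbour CARMIL2 is found in the GRCh38.p14 table. The start of CTCF is also shared with a divergent transcript, CTCF-DT, so the summits there cannot be assigned to either gene alone. The same holds at STAG1, NIPBL, WAPAL and PDS5B, which have a divergent transcript in that table, and at RAD21, which has an antisense one.

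CTCFL differed from CTCF in where its summits lay and in their height. Its window, on chromosome 20 from 56053 to 56110 kb, held 4 summits in 4 separate intervals of 140 to 263 bp. Their fold enrichments were 3.19 at 56077027, 3.19 at 56084899, 4.30 at 56089490 and 5.08 at 56101270. All 4 were below the list median of 5.35, and the highest ranked above 45.8% of the list. ChIP fragments numbered 68, 63, 30 and 31 in the same order, against 185 at the strongest CTCF summit. The summit of 5.08 lay 1269 bp upstream of the implied 5′ end, which is uncertain for this gene. The background of this summit was 3.11 input fragments, the lowest at any of the 39. The other 3 lay 10.5 to 23.0 kb inside the implied gene. CTCFL was the 1 locus of the 10 at which no summit reached a −log10 q of 10, with 6.15 to 8.44. The closest summit outside its window, 8413 bp past the edge, had a fold enrichment of 10.4. Whether binding at CTCFL differs in resistant cells could not be assessed, since the list named for those cells repeats that of the sensitive cells.

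SMC3, a coiled-coil subunit of the cohesin ring, carried the strongest summit of all 10 loci. It lay at 112327083 on chromosome 10, within 1 kb of the implied gene start, in an interval from 112326868 to 112327242. Its fold enrichment was 18.1 with 220 ChIP fragments over a background of 6.86, above 98.8% of the list by fold. An interval just downstream, from 112327335 to 112328067, held summits of 6.18 and 2.68, the second being the lowest fold enrichment at any of the 10 loci. A summit of 3.30, at 112326386, lay on the upstream side of the strongest. The fifth, with 5.84 and 44 fragments, lay 4608 bp beyond the implied 3′ end. Over 37.1 kb of the gene no summit was listed.

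RAD21, the kleisin subunit that closes the ring, had both of its summits in a single interval at its start, on chromosome 8 from 117886456 to 117887097. The direction of transcription was taken from textbook knowledge for this gene. The summits, with fold enrichments of 8.51 and 5.38 and with 112 and 74 ChIP fragments, both lay well within 1 kb of the implied end. The rest of the gene, 28.7 kb, held none.

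STAG1, a subunit that binds the ring and helps it engage CTCF, had the widest interval and the most ChIP fragments. The interval ran over 1811 bp on chromosome 3 from 136470178 to 136471988 and held 5 summits spaced 247 to 566 bp apart. Their fold enrichments, from the implied gene start inward, were 3.15, 9.41, 6.80, 7.26 and 9.67. The summit of 9.41, at 136471373, had 239 ChIP fragments over a background of 15.4, both the highest values at the 10 loci, and ranked above 98.9% of the list by fragments. By fold it ranked above 85.7%. A sixth summit, at 136176386, lay 296 kb into the gene with a fold enrichment of 4.56 and 34 fragments. The 294 kb between it and the interval at the start held no summit.

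**Figure D3:**
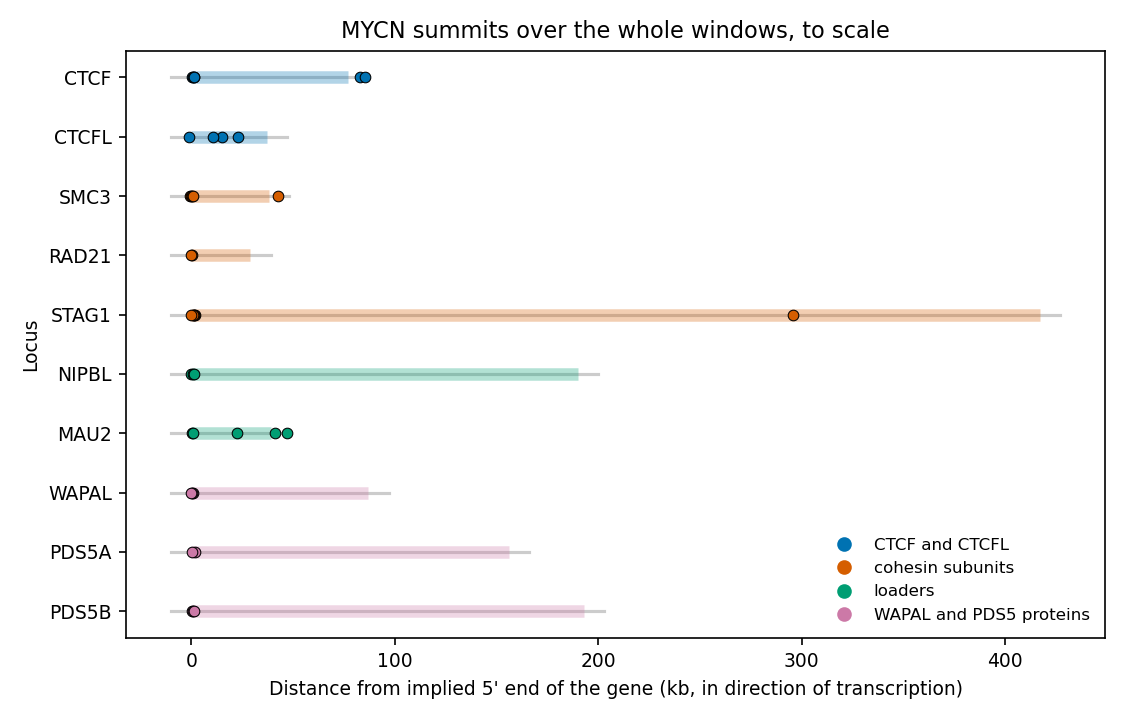
Distances in kb from the implied 5′ end run along the direction of transcription, to scale; coloured bars are the implied genes, grey lines the whole windows and points the MYCN summits. Points pile up at 0 in most rows, and STAG1, CTCFL and MAU2 are the 3 loci with a summit inside the gene more than 2 kb from its start.

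The cohesin loaders differed from each other. NIPBL, the loader subunit whose gene spans an implied 190 kb, had 3 summits in 3 separate intervals, all within 1567 bp of its implied start on chromosome 5. Their fold enrichments were 4.81 at 36876069, 5.15 at 36876779 and 3.41 at 36877568. All 3 were below the list median of 5.35, as at CTCFL, but ChIP fragments numbered 96, 127 and 57 and the background 12, 15 and 10 input fragments. The 2 loci with the lowest maxima by fold, CTCFL with 5.08 and NIPBL with 5.15, thus differed in fragments, with 31 and 127 at these summits. The remaining 188 kb of the NIPBL gene held no summit.

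MAU2, the partner of NIPBL, was the 1 locus of the 10 whose strongest summit lay away from its implied start. Its start, on chromosome 19, carried an interval from 19431133 to 19431882 with summits of 4.68 and 8.18 within 1 kb of the implied start, with 63 and 126 ChIP fragments. In the GRCh38.p14 table the protein-coding gene SUGP1 neighbours MAU2 on this side, so the summits there cannot be assigned to MAU2 alone. A summit of 7.08 with 142 fragments lay 22.7 kb into the gene. The strongest, at 19472063, had a fold enrichment of 17.9 with 194 fragments and lay 2062 bp beyond the implied 3′ end. It ranked above 98.8% of the list by fold, next to the SMC3 summit. A last one, with 5.22, lay 7809 bp beyond the 3′ end.

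The genes for release and regulation of cohesin had summits within 2 kb of their implied starts and none elsewhere in their windows. RAD21 and NIPBL, described above, shared this pattern. WAPAL, the release factor, had 3 summits in an interval on chromosome 10 from 88281218 to 88282168. Their fold enrichments from the implied start inward were 7.73, 11.8 and 3.09, with 119, 182 and 61 ChIP fragments. The rest of the gene, 86.4 kb, held none.

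PDS5A had a summit of 12.2 with 226 ChIP fragments at 39979617 on chromosome 4, within 1 kb of the implied start, in an interval from 39978908 to 39979858. It ranked above 93.9% of the list by fold and 98.2% by fragments. A summit of 4.45 with 54 fragments lay 1830 bp from the implied start. PDS5B, the paralogue of PDS5A, had 3 summits in an interval of 1276 bp on chromosome 13 from 33160256 to 33161531. Their fold enrichments were 9.01, 5.30 and 6.85 with 139, 75 and 148 fragments. The long bodies of both genes, 154 kb and 192 kb, held no summit.

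**Figure D4:**
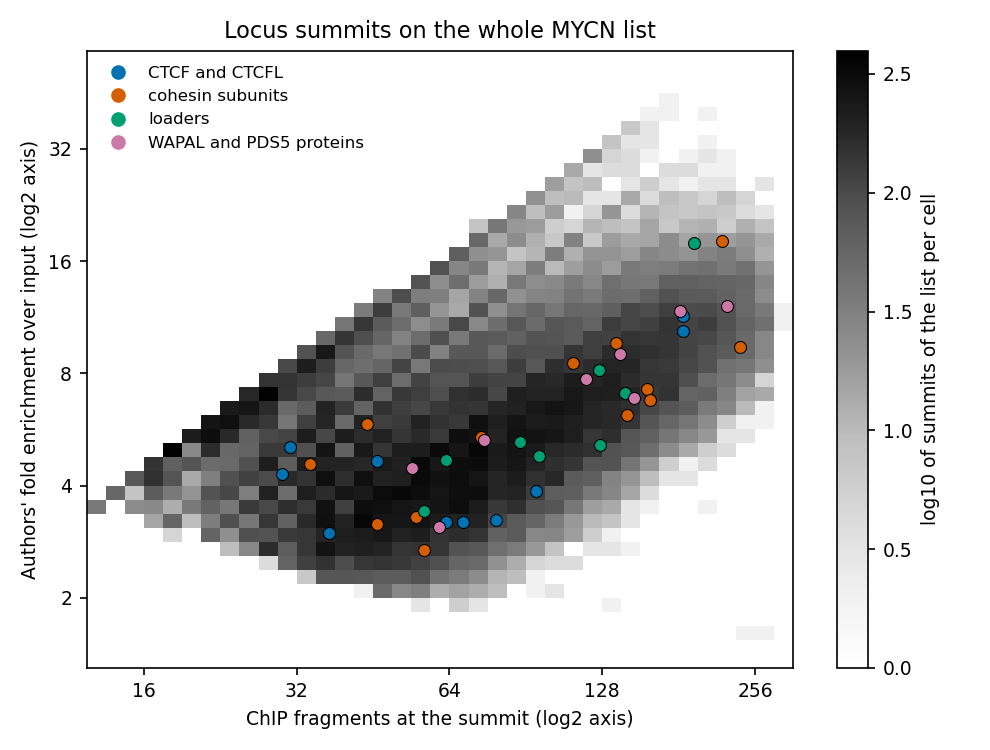
Coloured points are the 39 summits by ChIP fragments and the authors' fold enrichment, both on log2 axes, over a grey grid that counts all 64657 summits (darker is more, on a log10 scale). The points run along the body of the list, from 30 fragments at CTCFL to 239 at STAG1.

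Across the loci, the intervals at the gene starts were wider than those elsewhere in the windows. The 15 intervals with a summit within 2 kb of an implied 5′ end had a median width of 642 bp, against 227 bp for the other 10 and 279 bp in the list. Intervals with 3 or more summits were found at CTCF, STAG1, WAPAL and PDS5B, 4 of 25 in all, against 7.80% of the intervals of the list. All 4 lay at gene starts, and each of the 10 intervals elsewhere held a single summit. Summits near the starts, 29 in number, had a median of 119 ChIP fragments at a median fold of 6.18, and the 10 others a median of 65.5 ChIP fragments at a median fold of 4.60. The median input background was 9.52 fragments near the starts and 8.00 elsewhere, and its part in these differences was not tested. The highest summit by fold was near the implied start in 9 of 10 loci, and by ChIP fragments in 8 of 10, with CTCFL and MAU2 as the exceptions. The count by fold includes CTCFL, whose implied start is uncertain.

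Summit density varied with the length of the windows, most of which held their summits at the gene start. The highest densities were 8.62 summits per 100 kb at SMC3, 8.47 at MAU2, 7.02 at CTCFL and 6.19 at CTCF, and RAD21, with the shortest window of 49 kb, had 4.08. PDS5A had the lowest, 1.14, followed by STAG1 with 1.37. Density was above that of the locus's own chromosome in 7 of 10 windows, counted to the last peak of the chromosome. It was below it at STAG1, with 1.37 against 1.96 on chromosome 3, at NIPBL, with 1.43 against 1.78 on chromosome 5, and at PDS5A, with 1.14 against 1.20 on chromosome 4. The windows together held 26.7 summits per Mb and the chromosomes 21.3. Every window was built around a gene and its start, whereas the chromosome densities count all positions. Several summits of 1 interval also count separately, so these densities do not set the loci apart from other genes. Copy number was not accounted for, and raises ChIP and input alike. The count depended on the window edge: without the 10 kb on each side of the implied genes, 31 of the 39 summits were left. The MAU2 summit of 17.9 was not among them, 5 summits in place of 6 had a fold enrichment of at least 10, and the medians were 6.18 for fold and 119 for ChIP fragments. The summit closest to an edge from inside, at CTCF with a fold enrichment of 4.64, lay 1467 bp from it, and the closest from outside, also at CTCF with 3.82, lay 3898 bp from it.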

How the data were processed

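MYCN ChIP and input were sequenced in Kelly cells, and peaks were deposited as lists of summits. Per the submitters' processing notes, the build was hg19 and the tools included MACS2 2.1.1, STAR 2.5.1b, deepTools 2.2.4, SAMtools 1.3.1 and Picard. Their settings, and the way the 2 ChIP samples were combined, were not stated there. Each deposited row holds a fold enrichment (a ratio of ChIP to local input), a −log10 p-value, a −log10 q-value and an integer score, all the authors' values for that peak. The score was not used. Positions are on hg19, counted from 1.

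The files hold no read counts. Fold and p-value were solved together for ChIP fragments and local background as MACS2 relates them. A scale of 0.641 gave a whole number, within 0.002, at 64657 of 64657 summits. In the fold, ChIP fragments are multiplied by this scale, and a small constant is added to them and to the background. The list's lowest number was 13 and its highest 280, and ChIP fragments were 1.56 times the input fragments. Whether removal of repeated reads put an upper limit on the fragment numbers, and so on the highest folds, was not tested. The procedure was checked on simulated summits: it returned the exact number at 3482 of 3482 with a scale of 0.6, at 3646 of 3647 with 0.73 and at 3765 of 3765 with 0.88.

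Windows were those of the locus definition. Every locus was described, naming the summits of highest fold, of most fragments and nearest to the implied 5′ end. The members and lists were chosen with earlier results of these data known. Strand came from the RefSeq promoter table, with RAD21 as the exception. The planned protein alignment and the counts at other cohesin genes were not run, since no protein table or hg19 annotation was used. Promoter windows were matched by symbol for 9 of 10 genes, RAD21 not among them. Shares of summits carry exact 95% intervals for counting error only, which treat summits as independent. PCR reads lacking molecular identifiers can repeat a molecule, and the intervals do not cover this. Scripts ran in Python 3.11.15 with scipy 1.17.1, pandas 2.3.3, numpy 2.4.6 and matplotlib 3.10.9.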

Additional observations from a re-analysis of the deposited data

How the results depend on the processing

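No paired analysis was possible because both ChIP samples share 1 list, which also leaves no replicate to omit. Of 36 alternatives, 30 left the value within 1.5 times the count, or inside the exact 95% interval of the median, and 6 did not. The 39 summits became 23 with a fold enrichment of at least 5, and 25 with 1 summit per interval. With a fold enrichment of at least 5 the median fold was 7.73 and the median number of ChIP fragments 142, which follows from leaving out the lower summits. At the implied 3′ ends in place of the 5′ ends the count of windows was 0, with a MAU2 summit just past the limit, and with any of the 4 sequences in place of CACGTG the count of genes was 5. These last 2 were chosen after seeing the data. With a −log10 q of at least 10, the windows with a summit near the 5′ end numbered 9, because all CTCFL summits were lost. CTCFL summits with 30 and 31 ChIP fragments rest on few fragments, and sites with fewer than 13 are not in the list.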
